A study of Mus musculus with 13 samples.

Results

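Methylation of histone lysines marks chromatin states, and the marks are placed by histone lysine methyltransferases ("writers") and removed by lysine demethylases ("erasers"). The 34 genes described here are 20 writers and 14 erasers, chosen by name with earlier results of these data known. They were matched from Ensembl gene IDs to mouse symbols among the 43629 genes counted. Their RNA was measured in mouse embryonic fibroblasts, connective tissue cells grown from embryos at day E12.5, with IMP1 (gene Igf2bp1) and IMP2 (gene Igf2bp2), related cytoplasmic RNA-binding proteins, as the subject of the study. In 9 libraries RNA was recovered by immunoprecipitation (IP): 3 with anti-IMP1, 3 with anti-IMP2 and 3 with a control immunoglobulin, IgG, which measures RNA carried along without a specific antibody. The other 4 libraries are total RNA from IMP1 KO, IMP1 WT, IMP2 KO and IMP2 WT cells, 1 library each. Per the labels the KO cells lack IMP1 or IMP2, while the genotype of the cells used for IP is not stated. Nor do the labels say that replicates are separate cultures, so the p-values below measure only the spread between these libraries, which may be technical.

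Gene counts per library came to between 11430002 and 21756430. Igf2bp1 had 3.276 CPM (counts scaled to a common library total) in IMP1 KO and 32.01 CPM in IMP1 WT total RNA, and Igf2bp2 had 28.14 CPM in IMP2 KO and 147.3 CPM in IMP2 WT total RNA, so both knockouts were low in their own gene. Of 10 fibroblast markers, 9 exceeded 1 CPM in every IP library and all 10 did so in every total RNA library, while the marker Lum had 2 counts or fewer in each IP library. This threshold shows presence and not equal levels. Reads outside annotated genes made up 7.431% to 7.665% of records in IMP1 IP, 4.697% to 5.218% in IMP2 IP and 24.16% to 25.15% in IgG IP. Their part in any difference from IgG IP was not tested. Replicates differed by 1.15 to 8.41 times the variance of sampling noise (chi-square per gene with at least 30 reads in the pair), most between IMP2 IP replicate 1 and the other IMP2 IP libraries; without it 33 genes were still higher in IMP1 IP than in IMP2 IP.

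The writers differ in the lysine they modify. Methylation of histone H3 at lysine 4 (H3K4) is found at promoters and enhancers, H3K36 along transcribed gene bodies, H3K79 at active genes, and H3K9 and H3K27 in silenced chromatin. KMT2A, KMT2B, KMT2C, KMT2D, SETD1A and SETD1B are large H3K4 writers that work in multi-subunit COMPASS-like complexes. EZH1 and EZH2 are the alternative catalytic subunits of Polycomb repressive complex 2. Kmt2e, without known methyltransferase activity, and Setd5, whose activity on histones is disputed, are counted among the writers here. Erasers fall into the flavin-dependent KDM1 pair and the larger JmjC family, whose members need iron, oxygen and 2-oxoglutarate. IMP proteins act on the stability, localisation and translation of the mRNAs they bind.

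Nearly the whole set was recovered at a higher level with anti-IMP1 than with anti-IMP2. In the comparison of IMP1 IP with IMP2 IP, 33 of the 34 genes were higher and 0 were lower by edgeR's quasi-likelihood test at adjusted p under 0.05, against 34.1% higher and 37.3% lower among all 14076 genes tested. All 34 log2 fold changes were above 0 in this fit, so no gene of the set could be called lower at any threshold. DESeq2 and limma voom also called 0 lower. The median log2 fold change was 0.79 for the set and -0.01 for all genes tested. As the set was chosen with earlier results of these data known, these values describe it and are no independent test. At least 1.5-fold differences were found for 20 genes (19.4% of all genes were called higher by this rule) and at least 2-fold differences for 13 (9.68% of all genes). The set lies above most genes in level, with a median average log2 CPM of 6.71 (range 4.07 to 9.75) against 4.13 for all genes tested. Among the 7283 genes with an average log2 CPM of at least 4, 43.4% were higher and 42.9% lower in IMP1 IP than in IMP2 IP.

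Under total count scaling, which moved the median of all genes to -0.34 and that of the set to 0.46, 22 genes of the set were higher and 5 lower, with 2908 genes in all higher and 7544 lower. Setd7, Ehmt2, Suv39h2, Ezh1, Ezh2, Prdm2, Kdm1a, Kdm2b and Kdm4a turned below 0 under that scaling. Upper quartile scaling left 33 higher and 0 lower.

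The highest fold change belonged to Kmt2c, which encodes an enhancer-associated H3K4 writer. Its level was 216.7, 214.5 and 219.0 CPM in IMP1 IP, 70.66, 74.08 and 76.99 CPM in IMP2 IP, and 193.9, 193.0 and 188.9 CPM in IgG IP. The IMP2 IP libraries stood far below both other groups, and no groups overlapped. The log2 fold change of IMP1 IP against IMP2 IP was 1.55 (SE 0.0384, adjusted p = 1.96e-19).

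Kmt2a, the H3K4 writer known for its part in Hox gene expression and in leukaemia translocations, came next with a log2 fold change of 1.44 (SE 0.0313). It had 707.5, 719.1 and 728.9 CPM in IMP1 IP, 260.2, 263.6 and 269.1 CPM in IMP2 IP, and 650.6, 669.1 and 657.6 CPM in IgG IP. The IMP1 and IgG libraries lay near each other without overlapping, and the IMP2 libraries lay apart. Nsd1, an H3K36 writer mutated in an overgrowth syndrome in humans, followed at 1.39 (SE 0.0361). It had 314.6, 314.1 and 308.5 CPM in IMP1 IP, 118.9, 115.0 and 124.2 CPM in IMP2 IP, and 241.6, 250.5 and 242.5 CPM in IgG IP, with no overlap between any of the groups.

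The smallest differences that passed the test were those of Ehmt2, Prdm2 and Kdm1a. Ehmt2, which encodes the H3K9 writer G9a, had 223.1, 221.5 and 217.1 CPM in IMP1 IP, 216.6, 184.1 and 190.2 CPM in IMP2 IP, and 201.1, 202.5 and 204.4 CPM in IgG IP (IMP1 IP against IMP2 IP 0.17, SE 0.045). One IMP2 IP library lay close under the IMP1 IP libraries and above all of IgG IP. Prdm2, a PR-domain H3K9 writer, had 134.6, 135.5 and 135.7 CPM in IMP1 IP, 116.2, 118.4 and 125.4 CPM in IMP2 IP, and 166.6, 159.0 and 155.5 CPM in IgG IP (0.17, SE 0.0397), so both pull-downs were under the control. Kdm1a, the H3K4 eraser LSD1, had 98.04, 93.47 and 95.79 CPM in IMP1 IP, 85.95, 83.14 and 84.5 CPM in IMP2 IP, and 77.65, 78.28 and 81.89 CPM in IgG IP (0.18, SE 0.0408). It is one of few genes of the set whose IMP2 libraries were all above IgG, though that difference did not pass the test (adjusted p = 0.0546).

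Ezh2, the main H3K27 writer of dividing cells, was the single gene that did not pass. It had 67.61, 66.63 and 68.89 CPM in IMP1 IP, 63.61, 68.36 and 64.59 CPM in IMP2 IP, and 73.19, 78.88 and 76.06 CPM in IgG IP. The pull-downs overlapped each other (log2 fold change 0.05, SE 0.0459, adjusted p = 0.375), and both lay under the control.

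**Figure D1:**
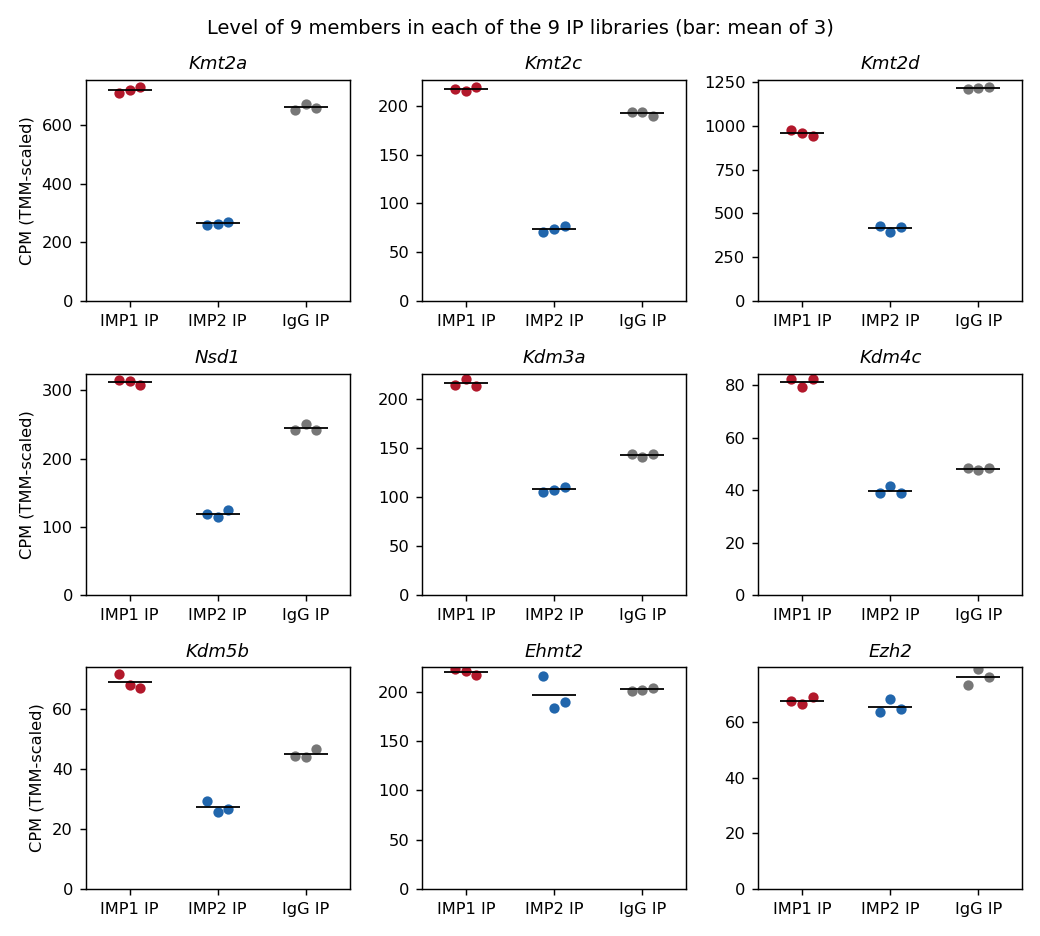
TMM-scaled CPM of 9 of the 34 genes in each of the 9 IP libraries, with IMP1 IP, IMP2 IP and IgG IP from left to right in every panel, points for libraries and a bar for the mean of 3; axes start at 0. Kmt2a, Kmt2c and Nsd1 drop in IMP2 IP only, Kdm3a, Kdm4c and Kdm5b stand above IgG IP in IMP1 IP and below it in IMP2 IP, and the 3 groups of Ehmt2 and Ezh2 lie close together.

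Set against IgG, the median of the set lay farther below 0 in IMP2 IP than above 0 in IMP1 IP. The writers carried this, with medians of -0.69 in IMP2 IP and 0.12 in IMP1 IP. For the erasers the medians were about as far from 0, at -0.35 and 0.32. In IMP2 IP, 27 of the 34 genes were lower than in IgG IP and 0 were higher, where 37.3% of all genes were lower and 40.3% higher. The 0 stood beside 2 genes at an unadjusted p under 0.05 in edgeR, 0 by DESeq2 and 0 by limma voom. The median log2 fold change was -0.58, and 0.04 for all genes; 17 genes were at least 1.5-fold lower (23.6% of all genes) and 7 at least 2-fold lower (16.3% of all genes). In IMP1 IP, 21 genes were higher than in IgG IP and 7 lower, where 31.7% of all genes were higher and 31.9% lower, with a median of 0.22 against -0.03. This split of the IMP1 calls depended on the scaling. Upper quartile scaling, which moved the median of all genes to -0.20, gave 14 higher and 13 lower (2952 and 6391 of all genes) and a set median of 0.05. Total count scaling (median of all genes -0.19) gave 15 higher and 11 lower, and 3086 and 6172 of all genes. In IMP2 IP these scalings gave 32 lower and 0 higher (upper quartile; all genes 6436 and 4270), and 24 lower and 5 higher (total count; all genes 4238 and 6987). Among genes with an average log2 CPM of at least 4, 53.9% were higher and 20.0% lower in IMP1 IP than in IgG IP, shares near the set's own 61.8% and 20.6%. In IMP2 IP 30.6% of those genes were lower and 54.4% higher, against 79.4% and 0% of the set. All 3 comparisons use the same 9 libraries, and those with IgG share the control.

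The 3 lowest fold changes of IMP2 IP against IgG IP were those of the H3K4 writers Kmt2d, Kmt2c and Kmt2a. Kmt2d, which encodes the other enhancer H3K4 writer and is the gene of Kabuki syndrome in humans, had 976.3, 956.6 and 939.1 CPM in IMP1 IP, 429.9, 394.6 and 421.0 CPM in IMP2 IP, and 1209, 1214 and 1220 CPM in IgG IP. The control libraries were the highest and the IMP2 libraries the lowest, with wide gaps between all groups. The log2 fold change was -0.34 in IMP1 IP (SE 0.0332) and -1.55 in IMP2 IP (SE 0.0341). Kmt2c and Kmt2a followed in IMP2 IP, at -1.37 (SE 0.039) and -1.32 (SE 0.0314).

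The lowest fold changes of IMP1 IP against IgG IP were those of Kmt2e, Kmt2d and Setd7. Kmt2e, a KMT2 family protein without known methyltransferase activity, had 130.5, 136.9 and 147.6 CPM in IMP1 IP, 87.88, 97.04 and 96.0 CPM in IMP2 IP, and 187.7, 194.9 and 185.1 CPM in IgG IP. Setd7, an H3K4 monomethyltransferase that also modifies other proteins, had 250.9, 257.8 and 257.9 CPM in IMP1 IP, 198.5, 214.7 and 217.4 CPM in IMP2 IP, and 317.6, 306.9 and 303.7 CPM in IgG IP. Both genes ran from the control down through IMP1 IP to IMP2 IP with no overlap. Their log2 fold changes against IgG IP were -0.45 in IMP1 IP and -1.01 in IMP2 IP for Kmt2e, and -0.28 in IMP1 IP and -0.56 in IMP2 IP for Setd7.

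The 4 genes that were at least 1.5-fold higher in IMP1 IP than in IgG IP were all JmjC erasers: Kdm4c, Kdm5b, Kdm3a and Kdm4b (7.59% of all genes were called by this rule). The writer Setd2 came next and fell just short, at 1.45-fold. The 4 rest on TMM scaling. Upper quartile and total count scaling lowered the values of IMP1 IP against IgG IP, for Kmt2a from 0.12 to -0.05 and -0.03. The count at 1.5-fold under those scalings is not given here. Kdm4c, an eraser of H3K9 methylation, had 82.2, 79.13 and 82.19 CPM in IMP1 IP, 38.99, 41.48 and 38.72 CPM in IMP2 IP, and 48.58, 47.58 and 48.26 CPM in IgG IP (IMP1 IP against IgG IP 0.75, SE 0.0484, adjusted p = 8.68e-12). Kdm5b, an H3K4 eraser, had 71.45, 68.02 and 66.85 CPM in IMP1 IP, 29.22, 25.69 and 26.52 CPM in IMP2 IP, and 44.33, 43.83 and 46.46 CPM in IgG IP (0.61, SE 0.0554). Kdm3a, an H3K9 eraser that is induced by hypoxia, had 214.3, 220.7 and 213.8 CPM in IMP1 IP, 105.8, 107.6 and 110.6 CPM in IMP2 IP, and 144.3, 141.2 and 143.8 CPM in IgG IP (0.60, SE 0.0359). In all 3 the control lay between the pull-downs, with the IMP1 libraries above it and the IMP2 libraries below it. The smallest depletions in IMP2 IP that passed the test were those of Ezh2 (-0.21), Kdm4b (-0.28) and Kdm4c (-0.28). Kdm4b, another H3K9 eraser, had 77.0, 74.33 and 74.83 CPM in IMP1 IP, 45.59, 37.22 and 41.88 CPM in IMP2 IP, and 48.72, 53.04 and 48.95 CPM in IgG IP, where the highest IMP2 IP library came close to the control without reaching it.

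**Figure D2:**
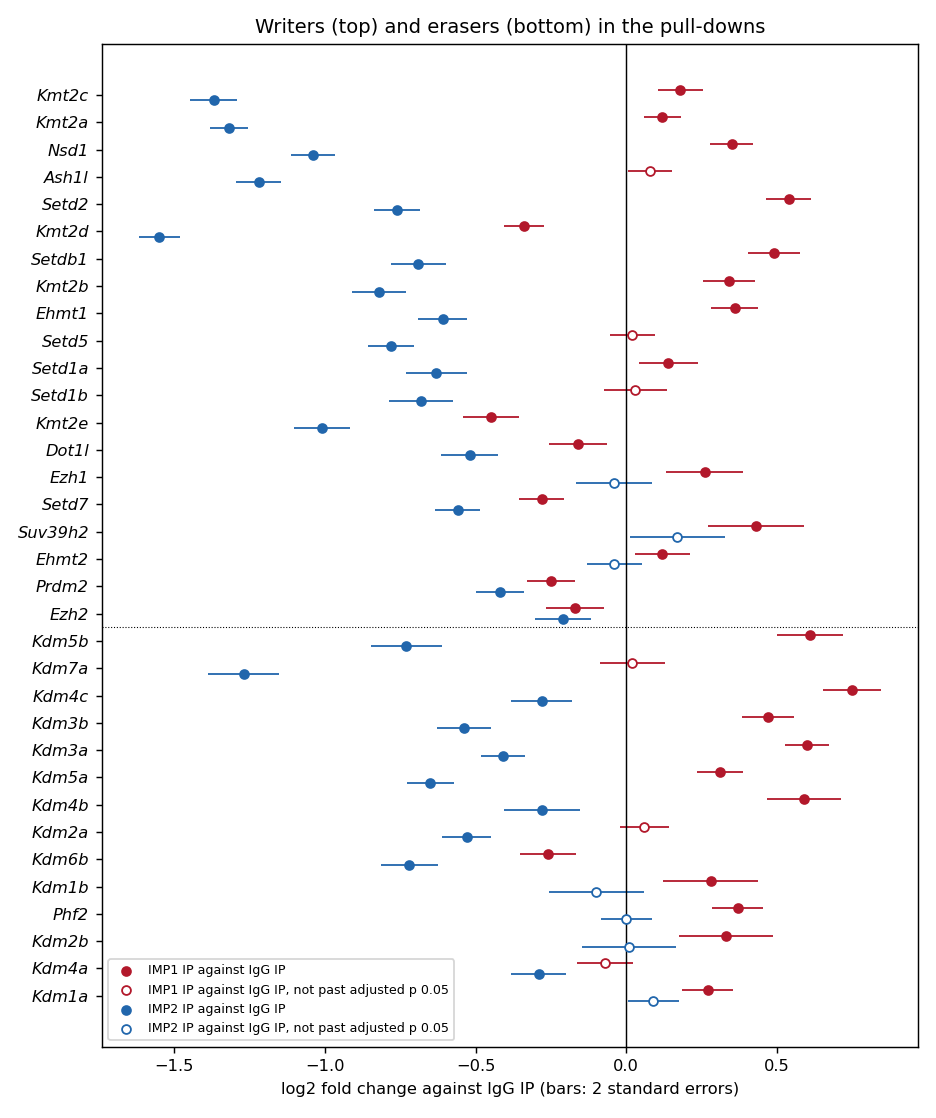
Log2 fold change of IMP1 IP (red) and IMP2 IP (blue) against IgG IP for the 20 writers above the dotted line and the 14 erasers below it, ordered within each class by IMP1 IP against IMP2 IP; bars are 2 standard errors and open circles did not pass adjusted p 0.05. Blue points lie at or left of 0 except for small uncalled values up to 0.17, and red points lie between -0.45 and 0.75, to the right of the blue point in every row.

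By the signs of the calls the genes fell into 4 patterns. In 14 the level was higher in IMP1 IP and lower in IMP2 IP than in IgG IP: the writers Kmt2a, Kmt2b, Kmt2c, Setd1a, Setd2, Setdb1, Ehmt1 and Nsd1, and the erasers Kdm3a, Kdm3b, Kdm4b, Kdm4c, Kdm5a and Kdm5b. Another 7 were higher in IMP1 IP with no call in IMP2 IP: Ehmt2, Suv39h2, Ezh1, Kdm1a, Kdm1b, Kdm2b and Phf2. A further 7 were lower in both pull-downs: Kmt2d, Kmt2e, Setd7, Dot1l, Ezh2, Prdm2 and Kdm6b. The remaining 6 were lower in IMP2 IP with no call in IMP1 IP: Setd1b, Setd5, Ash1l, Kdm2a, Kdm4a and Kdm7a. How often each pattern occurs among all genes tested is not given here, so these counts cannot show whether a pattern is unusual. Only single calls have a background. Against IgG IP, 31.7% of all genes had a higher call and 31.9% a lower call in IMP1 IP. The share with a lower call in IMP2 IP was 37.3%. The calls of Kmt2a, Setd1a and Ehmt2 as higher in IMP1 IP, at log2 fold changes of 0.12, 0.14 and 0.12, turned below 0 under upper quartile scaling, total count scaling and a 10 CPM filter. Kmt2c, Ezh1 and Kdm1b lost the same call under all 3 of these settings, where Kmt2c came to 0.00, 0.02 and 0.03, and Ezh1 and Kdm1b were called lower in IMP2 IP under upper quartile scaling and the 10 CPM filter. The first pattern, higher in IMP1 IP and lower in IMP2 IP, then held 12 genes under upper quartile scaling, 9 under total count scaling and 12 under the 10 CPM filter, of which 11, 9 and 11 were among the 14. Genes lower in both pull-downs numbered 13, 10 and 10 under these settings. Those higher in IMP1 IP with no call in IMP2 IP fell from 7 to 2, 2 and 3. Ehmt2 and Phf2 were called lower in IMP2 IP under upper quartile scaling (-0.22 and -0.18) and the 10 CPM filter (-0.22 and -0.18). Total count scaling called both higher there (0.13 and 0.17). Genes lower in IMP2 IP with no call in IMP1 IP numbered 7, 5 and 9.

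Ordered by the lysine modified, the H3K4 writers (Kmt2a, Kmt2b, Kmt2c, Kmt2d, Setd1a, Setd1b and Setd7) were higher in IMP1 IP than in IMP2 IP in 7 of 7 cases (34.1% of all genes), with a median log2 fold change of 1.16 and a range of 0.28 to 1.55. All 7 were lower in IMP2 IP than in IgG IP (median -0.82), a call made for 37.3% of all genes. In IMP1 IP 4 were higher and 2 lower than in IgG IP, where 31.7% of all genes were higher and 31.9% lower. The balance in IMP1 IP turned with the setting, to 1 higher and 3 lower under upper quartile and total count scaling and 1 higher and 2 lower with a 10 CPM filter. The 3 H3K36 writers lay close together between the pull-downs. Nsd1, Setd2, which trimethylates H3K36 behind RNA polymerase II, and Ash1l, which counteracts Polycomb silencing, had log2 fold changes of 1.39, 1.3 and 1.3 there and fell by 1.04, 0.76 and 1.22 in IMP2 IP against IgG IP. The 5 H3K9 writers were split. Setdb1, which silences endogenous retroviruses, and Ehmt1 had 1.18 and 0.96 between the pull-downs, while Suv39h2, Ehmt2 and Prdm2 had 0.26, 0.17 and 0.17. The H3K27 writers Ezh1 and Ezh2 had 0.30 and 0.05, and Dot1l, the H3K79 writer, had 0.36. Setd5, whose activity on histones is disputed, had 0.80 and Kmt2e had 0.56.

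Each gene was grouped under 1 lysine, and any further lysine that its enzyme acts on was not counted. Among the erasers, 4 were grouped under H3K4. Their log2 fold changes between IMP1 IP and IMP2 IP were 1.35 (Kdm5b), 0.95 (Kdm5a), 0.38 (Kdm1b) and 0.18 (Kdm1a). All 4 were higher in IMP1 IP than in IgG IP (31.7% of all genes), Kdm1b not under upper quartile scaling, total count scaling or a 10 CPM filter. The 7 grouped under H3K9 had a median of 1.00, led by Kdm7a at 1.29, Kdm4c at 1.03 and Kdm3b at 1.02, with Kdm4a lowest at 0.23. Kdm7a differed from IgG IP in IMP2 IP and had no call in IMP1 IP. It had 43.44, 43.83 and 43.78 CPM in IMP1 IP, 17.62, 17.42 and 18.35 CPM in IMP2 IP, and 43.39, 41.79 and 43.68 CPM in IgG IP. IMP1 IP and the control overlapped and IMP2 IP lay far below, at a log2 fold change of -1.27 (SE 0.0587) against IgG IP, the fourth lowest of the set. Phf2, a JmjC eraser of H3K9, showed the mirror image, with 113.8, 121.2 and 117.8 CPM in IMP1 IP, 90.95, 88.77 and 92.71 CPM in IMP2 IP, and 91.97, 88.09 and 92.7 CPM in IgG IP. There IMP2 IP and the control overlapped and IMP1 IP lay above them, but Phf2 was called lower in IMP2 IP under upper quartile scaling (-0.18) and higher under total count scaling (0.17). Kdm2a and Kdm2b, grouped under H3K36, had 0.59 and 0.33. Kdm6b, grouped under H3K27, encodes JMJD3, which is induced in inflammation, and had 0.46.

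Writers and erasers differed little in the comparison of the pull-downs but differed in how each stood against IgG. Between IMP1 IP and IMP2 IP, 19 of 20 writers and 14 of 14 erasers were higher (34.1% of all genes), with medians of 0.79 and 0.73. Against IgG IP, 11 writers were higher and 6 lower in IMP1 IP (median 0.12), where 10 erasers were higher and 1 lower (median 0.32). Of all genes 31.7% were higher and 31.9% lower there. Among genes with an average log2 CPM of at least 4, the shares were 53.9% and 20.0%. The writers' 55.0% higher was near that share. Upper quartile scaling gave 6 higher and 9 lower writers and 8 higher and 4 lower erasers in IMP1 IP, total count scaling 6 and 8 writers and 9 and 3 erasers, and a 10 CPM filter 6 and 7 writers and 9 and 3 erasers, so the writers' balance turned and the erasers' did not. In IMP2 IP, 17 of 20 writers were lower (median -0.69) and 10 of 14 erasers were lower (median -0.35). Of all genes 37.3% were lower there, and 30.6% of those with an average log2 CPM of at least 4. Summed over each class, writers exceeded erasers by a ratio of 2.948 to 2.963 in IMP1 IP, 2.301 to 2.389 in IMP2 IP and 3.463 to 3.488 in IgG IP. The ranges do not overlap, and the ratio was lower in both pull-downs than in the control. Kmt2d alone carries much of the writers' sum; without it (a step added after its values were seen) the ratios were 2.40 to 2.43 in IMP1 IP, 1.92 to 2.01 in IMP2 IP and 2.65 to 2.66 in IgG IP, in the same order. The difference between the classes is a description and was not tested.

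Paralogs with like activities did not always move alike. Ehmt1 and Ehmt2 form a heterodimer that dimethylates H3K9, yet their log2 fold changes between IMP1 IP and IMP2 IP were 0.96 (SE 0.0392) and 0.17 (SE 0.045), and in IMP2 IP against IgG IP -0.61 and -0.04. Kdm1b and Kdm1a had 0.38 and 0.18 between the pull-downs, and neither was called against IgG in IMP2 IP, though Kdm1b was lower under upper quartile scaling (-0.28) and Kdm1a higher under total count scaling (0.27). Kdm2a and Kdm2b had -0.53 and 0.01 in IMP2 IP against IgG IP, but 0.06 and 0.33 in IMP1 IP against IgG IP; upper quartile scaling gave Kdm2b -0.17 in IMP2 IP and Kdm2a -0.11 in IMP1 IP. Kdm5b and Kdm5a had 1.35 and 0.95, and Kmt2a and Kmt2b had 1.44 and 1.16, between the pull-downs. Pairs with close values were Kdm3b and Kdm3a (1.02 and 1.00) and Setd1a and Setd1b (0.77 and 0.71). Kmt2c and Kmt2d, at 1.55 and 1.21 between the pull-downs, had 0.18 and -0.34 against IgG in IMP1 IP, where Kmt2c came to 0.00 under upper quartile scaling. The differences within pairs were not tested.

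Against total RNA all 3 kinds of IP, the control included, were rich in these transcripts. In a fit that added the 2 wild-type total RNA libraries (IMP1 WT and IMP2 WT, 16157 genes tested), 33 of the 34 genes were higher in IMP1 IP than in wild-type total RNA (41.4% of all genes), 32 were higher in IMP2 IP (39.5%) and 32 were higher in IgG IP (43.7%). Lower calls numbered 1 in IMP1 IP (44.7% of all genes), 2 in IMP2 IP (41.6%) and 1 in IgG IP (44.4%). The set's median log2 fold changes were 1.61, 0.89 and 1.52 in IMP1 IP, IMP2 IP and IgG IP, where all genes had -0.03, 0.02 and -0.01. All 20 writers were higher than total RNA in each kind of IP. The gain of IgG IP was thus close to that of IMP1 IP, and IP and total RNA cannot be told apart from how the 2 kinds of library were made. Of the 10 fibroblast markers, 3 were higher and 6 lower in IMP1 IP than in wild-type total RNA (median -1.27). Whether the cells behind the 2 kinds of library were in the same state was not tested.

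Kmt2d showed the largest gain. On the scale of this fit it had 1022, 996.4 and 974.9 CPM in IMP1 IP, 430.2, 397.7 and 432.8 CPM in IMP2 IP, 1226, 1221 and 1236 CPM in IgG IP, and 27.62 and 30.44 CPM in IMP1 WT and IMP2 WT total RNA. Every IP library was more than 10-fold above both total RNA libraries, and the log2 fold changes were 5.10 in IMP1 IP, 3.85 in IMP2 IP and 5.40 in IgG IP. Kmt2a followed with 4.23, 2.75 and 4.07, then Kmt2c with 3.75, 2.16 and 3.53 and Ash1l with 3.44, 2.1 and 3.32. Kdm5b was lower than total RNA in all 3 comparisons. It had 74.83, 70.85 and 69.41 CPM in IMP1 IP, 29.23, 25.89 and 27.27 CPM in IMP2 IP, 44.94, 44.09 and 47.07 CPM in IgG IP, and 80.99 and 93.09 CPM in IMP1 WT and IMP2 WT total RNA. Total RNA held more of this transcript than any IP library, at log2 fold changes of -0.28 in IMP1 IP, -1.67 in IMP2 IP and -0.94 in IgG IP. Kdm6b was lower than total RNA in IMP2 IP (-0.15) and higher in IMP1 IP (0.35) and IgG IP (0.56), and Kdm1a in IgG IP did not pass (0.08).

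**Figure D3:**
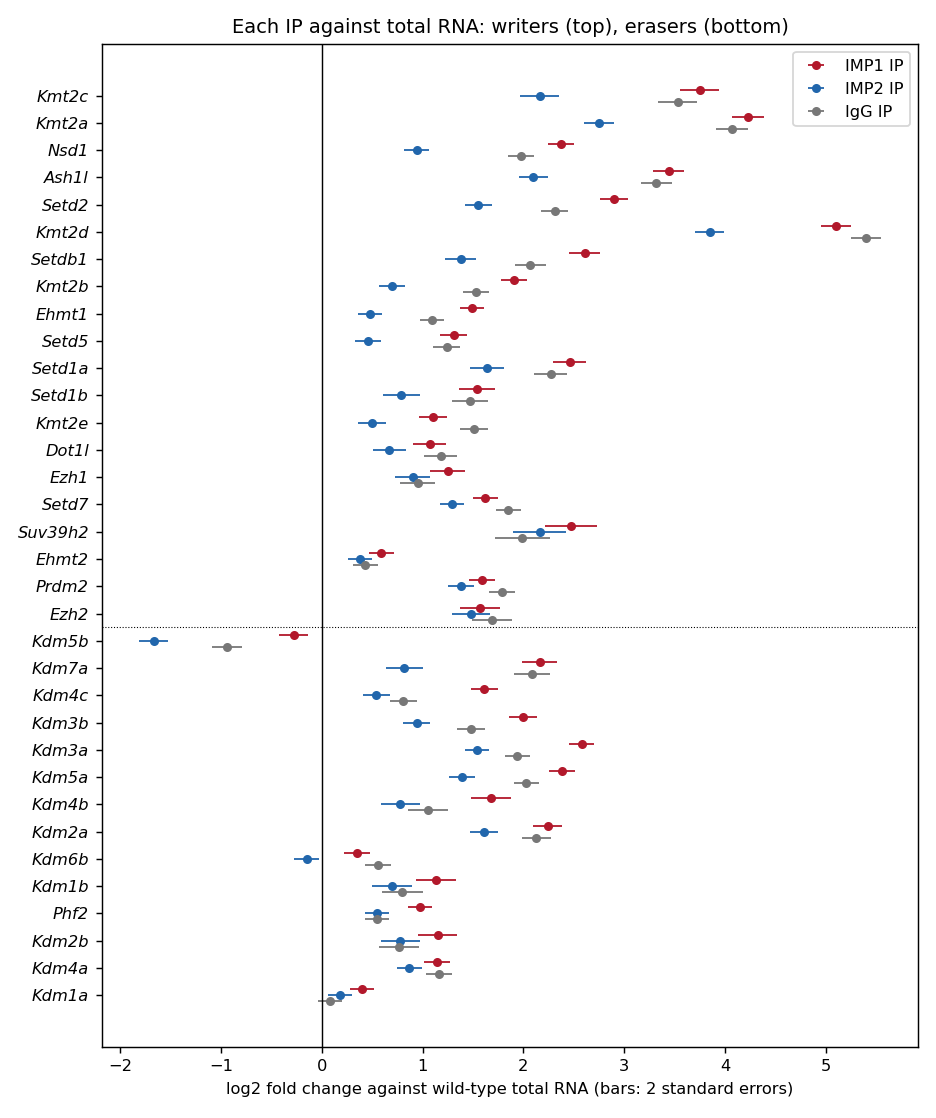
Log2 fold change of IMP1 IP (red), IMP2 IP (blue) and IgG IP (grey) against wild-type total RNA (2 libraries) for the writers above the dotted line and the erasers below it, with bars of 2 standard errors. Red and grey points run together up to 5.10 and 5.40 for Kmt2d, blue points lie left of both for most genes, and Kdm5b is left of 0 in all 3.

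Genes of long genomic span tended to be higher in IMP1 IP than in IMP2 IP, and the set is made of long genes. Span here is the length from start to end of the RefSeq gene on GRCm38.p6, introns included; transcript length was not used. The genes of the set span 15.6 to 227 kb. Over 12138 protein-coding genes, Spearman's rho of span with the log2 fold change of IMP1 IP against IMP2 IP was 0.39, and over the 34 genes it was 0.41; genes are not independent replicates and share the libraries. The medians of protein-coding genes were -0.46 for spans under 10 kb, -0.20 for 10 to 30 kb, 0.16 for 30 to 100 kb and 0.40 for 100 kb or more. The set's medians in the last 3 of these bins were 0.58 (6 genes), 0.80 (21 genes) and 1.03 (7 genes), above the bin's median each time. The rho of span over all protein-coding genes was 0.26 for IMP1 IP and -0.30 for IMP2 IP against IgG IP, and 0.30, 0.23 and 0.27 for IMP1 IP, IMP2 IP and IgG IP against total RNA. Span and the set's difference therefore move together, and the part of span in it was not tested further. Prdm2 (105 kb) and Kdm2b (119 kb) were long genes with small differences, at 0.17 and 0.33, and Kmt2b (20.2 kb, chromosome 7, 30568855 to 30589056) was a short gene with a large one, at 1.16.

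**Figure D4:**
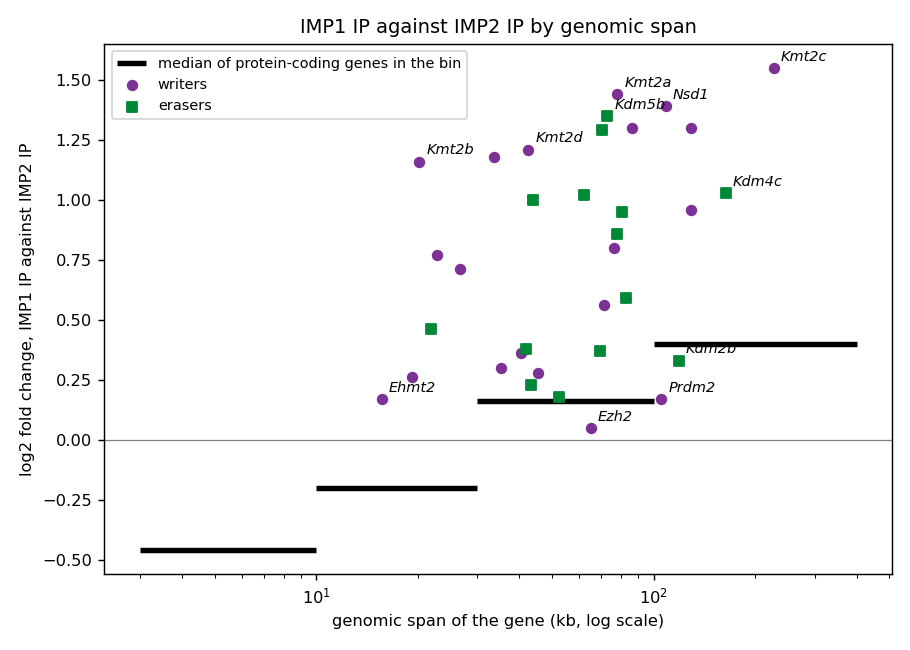
Log2 fold change of IMP1 IP against IMP2 IP (vertical) by genomic span in kb on a log scale (horizontal) for the 20 writers (circles) and 14 erasers (squares); black lines are medians of protein-coding genes in each span bin, from -0.46 to 0.40. Most of the 34 points lie above the line of their bin, with Ezh2, Prdm2 and Kdm2b below theirs.

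The lists of subunits that work beside these enzymes had medians nearer to 0 than the whole set's 0.79. Of all genes tested, 34.1% were higher and 37.3% lower in IMP1 IP than in IMP2 IP. Of 12 partners of COMPASS-like complexes, 6 were higher and 3 lower in IMP1 IP than in IMP2 IP (median 0.08). Ncoa6, a coactivator of the KMT2C and KMT2D complexes, rose by 0.72 and Hcfc1 by 0.66 on the log2 scale, while Dpy30, a small core subunit, fell by 1.35, with 7.197 ± 0.0921 CPM in IMP1 IP and 18.32 ± 2.13 CPM in IMP2 IP (SD, n = 3 each). Of 9 partners of Polycomb repressive complex 2, 5 were higher and 3 lower (median 0.27). That median was not nearer to 0 than the 0.17 of their own enzymes, Ezh1 and Ezh2. Aebp2 and Jarid2, accessory subunits, had 0.99 and 0.98, and the histone chaperone Rbbp4 had -1.01. Of 8 partners in H3K9 methylation 4 were higher and 2 lower (median 0.03), and of 9 CoREST and LSD1 partners 3 were higher and 3 lower (median -0.01).

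Further enzymes were mixed. Other lysine methyltransferases were higher in 8 and lower in 7 of 16 (median 0.39), with Kmt5b, an H4K20 writer, at 0.99. Of 9 other lysine demethylases, 8 were tested, and 4 were higher and 0 lower (median 0.20), led by Jmjd1c, a relative of Kdm3a, at 1.38, with Kdm6a at 0.70 and Kdm5c at 0.47. Histone acetyltransferases were higher in 5 and lower in 1 of 10 (median 0.30), led by Ep300 at 1.15 and Kat6a at 1.03. Histone deacetylases were higher in 6 and lower in 6 of 17 (median -0.24), with Hdac4 at 1.03 and Sirt2 at -1.02. Enzymes that supply S-adenosylmethionine, the methyl donor, were higher in 4 and lower in 5 of 10 (median -0.06). These lists were written by name, with earlier results of these data known.

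The knockouts were compared in total RNA, 1 library per genotype, so no test was possible and the intervals given are exact 95% counting intervals that cover counting error only. Of the 34 genes, 33 reached 10 CPM in at least 1 of the 4 libraries; Suv39h2 did not. At a fold of 1.5, 3 of the 33 were higher and 0 lower in IMP1 KO than in IMP1 WT (12.7% and 12.8% of the 10324 genes at this level), and 1 was higher and 1 lower in IMP2 KO than in IMP2 WT (15.0% and 15.1%). Between IMP1 WT and IMP2 WT none of the 33 passed this fold (1.97% and 2.91% of all genes), with log2 ratios from -0.50 to 0.51. The set's median log2 ratio was 0.06 in IMP1 KO and 0.21 in IMP2 KO. In total RNA, fewer cells of a type and less RNA per cell cannot be told apart. The summed level of 6 macrophage markers was 14.31 CPM in IMP1 KO and 25.29 CPM in IMP1 WT. It was 276 CPM in IMP2 KO and 33.79 CPM in IMP2 WT. Of the 10 fibroblast markers, 2 were at least 1.5-fold higher and 3 lower in IMP1 KO, with log2 ratios from -2.72 to 1.45. In IMP2 KO 4 were higher and 1 lower, from -2.89 to 1.9. In IMP1 WT against IMP2 WT 0 were higher and 3 lower. The part of either marker list in the knockout ratios was not tested.

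In IMP1 KO the genes past the fold were Kmt2c, Setd1b and Kdm2b. Kmt2c had 24.57 CPM in IMP1 KO and 15.27 CPM in IMP1 WT, a ratio of 1.61 (interval 1.35 to 1.92). In IMP2 KO it had 29.18 CPM, against 21.59 CPM in IMP2 WT, so the IMP1 WT library was the lowest of the 4 and IMP1 KO lay near IMP2 WT. Setd1b, a catalytic subunit of the SET1 complex, had 35.7 CPM in IMP1 KO and 22.26 CPM in IMP1 WT, a ratio of 1.60 (1.38 to 1.86), where IMP2 KO had 27.59 CPM and IMP2 WT 29.03 CPM. Kdm2b, which also recruits a variant Polycomb complex to unmethylated CpG islands, had 25.26 CPM in IMP1 KO and 16.28 CPM in IMP1 WT, a ratio of 1.55 (1.3 to 1.85). It had 23.81 CPM in IMP2 KO and 16.07 CPM in IMP2 WT, a ratio of 1.48 (1.27 to 1.74), and both wild types agreed closely. Among these 3, Kdm2b alone had both knockouts above both wild types by a margin much larger than that between the wild types. Genes short of the fold had this too, among them Phf2 and Kdm1b. Phf2 had 92.6 CPM in IMP1 KO and 95.29 CPM in IMP2 KO, against 68.94 CPM in IMP1 WT and 69.57 CPM in IMP2 WT. Kdm1b had 19.49 and 20.08 CPM in the same knockouts, against 13.99 and 14.19 CPM in the wild types.

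In IMP2 KO, Ezh1 was the gene past the fold upward and Dot1l the gene past it downward. Ezh1, which maintains H3K27 methylation in resting cells, had 40.78 CPM in IMP2 KO and 20.47 CPM in IMP2 WT, a ratio of 1.99 (1.75 to 2.27), against 17.85 CPM in IMP1 KO and 18.76 CPM in IMP1 WT. The IMP2 KO library stood alone, with the other 3 within 17.85 to 20.47 CPM. Its paralog Ezh2 had 15.81 CPM in IMP2 KO and 21.76 CPM in IMP2 WT, a ratio of 0.727 (0.618 to 0.854), but the wild types themselves differed, with 31.01 CPM in IMP1 WT. Dot1l had 20.88 CPM in IMP2 KO and 42.94 CPM in IMP2 WT, 2.06-fold lower (1.81 to 2.35), against 51.22 CPM in IMP1 KO and 54.08 CPM in IMP1 WT. Here too the IMP2 KO library lay apart from the other 3.

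The genes with the largest differences between the pull-downs were not those past the fold in total RNA, Kmt2c excepted. Kmt2a had 39.83 CPM in IMP1 KO and 39.41 CPM in IMP1 WT, and 50.91 CPM in IMP2 KO and 48.16 CPM in IMP2 WT. Nsd1 had 64.84 CPM in IMP1 KO and 65.64 CPM in IMP1 WT, and 74.78 CPM in IMP2 KO and 73.03 CPM in IMP2 WT. Their ratios of knockout to wild type lay between 0.988 and 1.06, with intervals that include 1. The 14 erasers had log2 ratios from -0.33 to 0.63 in IMP1 KO (median 0.17) and from -0.51 to 0.56 in IMP2 KO (median 0.24), and the writers at 10 CPM had -0.37 to 0.68 (median 0.02) and -1.04 to 0.99 (median 0.21). The ratio of summed writers to summed erasers was 1.45 in IMP1 KO and 1.475 in IMP1 WT, and 1.456 in both IMP2 KO and IMP2 WT. Counting intervals that left out 1 were found for 17 of the 33 genes in IMP1 KO against IMP1 WT (66.6% of all genes at 10 CPM), 23 in IMP2 KO against IMP2 WT (73.9%) and 14 in IMP1 WT against IMP2 WT (46.5%), so differences beyond counting error also occurred between wild types.

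**Figure D5:**
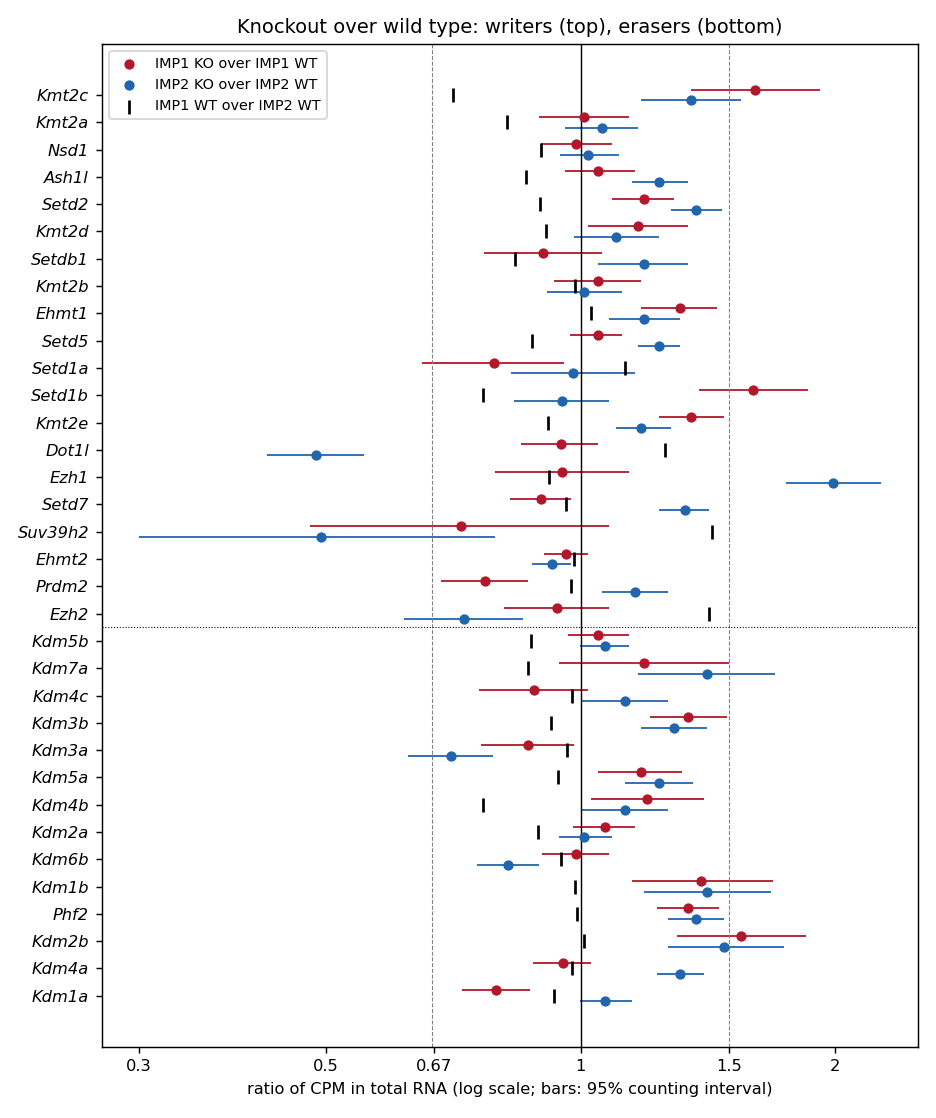
Ratio of CPM in total RNA, on a log scale, of IMP1 KO over IMP1 WT (red) and IMP2 KO over IMP2 WT (blue) for the writers above the dotted line and the erasers below it, with exact 95% counting intervals; black ticks are IMP1 WT over IMP2 WT and dashed lines mark 1.5-fold. Ezh1 at 1.99 and Dot1l at 0.486 in IMP2 KO lie farthest out among genes at 10 CPM.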

How the data were processed

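Each of the 13 deposited files holds raw counts of reads by Ensembl gene for 1 library. Per the submitters' processing notes, STAR and HTSeq were used with build mm10; settings and strand use are not given in the sources used here. Of the 34 genes, 20 overlap another RefSeq gene, 9 of them a protein-coding one, and reads from overlaps were not separated. The 5 tally lines of each file were left out of library sizes. Symbols were matched for 42462 genes.

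The 9 IP libraries entered 1 quasi-likelihood fit in edgeR 4.0.16 (R 4.3.3) with TMM scaling, its default count filter by group and no covariate; tests are 2-sided, Benjamini-Hochberg adjusted over 14076 genes, with a threshold of 0.05. The spread between replicates of a gene was 3.84% (common biological coefficient of variation). CPM are TMM-scaled. SE is the log2 fold change over the square root of F. Total RNA log2 ratios used a prior count of 2. A count of 0 allows up to 3 counts, 0.138 to 0.262 CPM.

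Values of every library are given for the 3 highest and 3 lowest called genes of each IP comparison and for genes past 1.5-fold in a knockout; Kdm7a and Phf2 were added after their values were seen. Members and lists were chosen with earlier results of these data known. Protein length, planned as a feature, was replaced by genomic span because no protein table was at hand. The fit was tested on simulated data. Alternatives were DESeq2 1.42.0, limma 3.58.1 voom, other scalings and filters, a 1.5-fold minimum, a replicate block, wild-type total RNA as background, and leaving out single libraries.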

Additional observations from a re-analysis of the deposited data

Results flagged for a closer look

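The 14 genes listed here were picked because they were higher in IMP1 IP and lower in IMP2 IP than in IgG IP. Both calls passed the threshold and used the same control. IMP1 IP above IMP2 IP follows from that choice, so the test between the pull-downs, from the same fit, adds no separate support. The share of all genes with both calls is not given here. The log2 fold change of IMP1 IP against IMP2 IP was 1.55 for Kmt2c, 1.44 for Kmt2a, 1.39 for Nsd1, 1.3 for Setd2, 1.18 for Setdb1, 1.16 for Kmt2b, 0.96 for Ehmt1 and 0.77 for Setd1a among the writers. Among the erasers it was 1.35 for Kdm5b, 1.03 for Kdm4c, 1.02 for Kdm3b, 1.00 for Kdm3a, 0.95 for Kdm5a and 0.86 for Kdm4b. In all 14 the 3 IMP1 IP libraries lay above the 3 IMP2 IP libraries, as the choice makes likely. Over all genes tested, these groups did not overlap, in either direction, for 10303 of 14076. The opposite directions depend on the setting for 5 of them: Kmt2a, Kmt2c and Setd1a lost the higher call in IMP1 IP under upper quartile scaling, total count scaling and a 10 CPM filter, with Kmt2a and Setd1a below 0, and Kdm4b and Kdm4c lost the lower call in IMP2 IP under total count scaling. Both calls held for 11, 9 and 11 of the 14 under these settings.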

How the results depend on the processing

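Between IMP1 IP and IMP2 IP, 33 higher and 0 lower calls were found with every library left out in turn (33 to 33 and 0 to 0), under both other tests, both filters, DESeq2 size factors and upper quartile scaling. Total count scaling gave 5 lower, and a 1.5-fold minimum 20 higher. Against IgG IP, leaving out single libraries gave 19 to 23 higher and 6 to 7 lower in IMP1 IP, and 0 to 2 higher and 27 to 28 lower in IMP2 IP. In IMP1 IP, lower calls were 11 under total count and 13 under upper quartile scaling, and a 1.5-fold minimum gave 4 higher and 0 lower. In IMP2 IP, higher calls were 2 with no count filter and 5 under total count scaling, and a 1.5-fold minimum gave 17 lower. With wild-type total RNA as background, calls were 33 higher and 1 lower in IMP1 IP, and 32 higher and 2 lower in IMP2 IP. In total RNA a 2-fold minimum left 0 higher in IMP1 KO and 0 higher in IMP2 KO, and a 1 CPM filter, which admits Suv39h2, gave 2 lower in IMP2 KO. By construction a higher minimum keeps fewer genes, a change of scaling moves all genes together, and total RNA replaces IgG IP as reference. The cause of the other changes was not tested. Same-numbered libraries had correlations of -0.0587 to 0.0733 and other-numbered libraries -0.0515 to 0.0512. Values this near 0 cannot show whether replicate numbers pair the samples. With the replicate block, calls were 33 higher and 0 lower between the pull-downs, 21 and 7 in IMP1 IP, and 0 and 27 in IMP2 IP against IgG IP, with no gene changing its call. The log2 fold changes that changed sign follow. A change of scaling moves all genes of a comparison by about the same amount. The TMM factors that total count scaling leaves out were 0.8941 to 0.8961 in IMP1 IP, 0.992 to 1.001 in IgG IP and 1.12 to 1.128 in IMP2 IP. Wild-type total RNA as background is a comparison with another reference, above which IgG IP itself lay (set median 1.52). The cause of the changes under the 10 CPM filter was not tested. For IMP1 IP against IgG IP a 10 CPM filter gave Kmt2a -0.02, Setd1a -0.0, Setd5 -0.12, Ehmt2 -0.02 and Kdm7a -0.12. Total count scaling gave Kmt2a -0.03, Setd1a -0.01, Setd1b -0.13, Setd5 -0.13, Ehmt2 -0.03 and Kdm7a -0.13. Upper quartile scaling gave Kmt2a -0.05, Setd1a -0.03, Setd1b -0.14, Setd5 -0.15, Ehmt2 -0.05, Ash1l -0.09, Kdm2a -0.11 and Kdm7a -0.15. Wild-type total RNA as background gave Kmt2d 5.10, Kmt2e 1.1, Setd7 1.62, Dot1l 1.07, Ezh2 1.57, Prdm2 1.59, Kdm4a 1.14, Kdm5b -0.28 and Kdm6b 0.35. For IMP2 IP against IgG IP total count scaling gave Ehmt2 0.13 and Phf2 0.17, and upper quartile scaling Kdm2b -0.17. Wild-type total RNA as background gave Kmt2a 2.75, Kmt2b 0.70, Kmt2c 2.16, Kmt2d 3.85, Kmt2e 0.50, Setd1a 1.64, Setd1b 0.79, Setd2 1.55, Setd5 0.46, Setd7 1.29, Setdb1 1.38, Ehmt1 0.48, Ehmt2 0.38, Nsd1 0.94, Ash1l 2.1, Dot1l 0.67, Ezh1 0.90, Ezh2 1.48, Prdm2 1.38, Kdm1b 0.70, Kdm2a 1.61, Kdm3a 1.54, Kdm3b 0.94, Kdm4a 0.87, Kdm4b 0.78, Kdm4c 0.54, Kdm5a 1.39, Kdm7a 0.82 and Phf2 0.55. For IMP1 IP against IMP2 IP total count scaling gave Setd7 -0.05, Ehmt2 -0.16, Suv39h2 -0.06, Ezh1 -0.03, Ezh2 -0.28, Prdm2 -0.16, Kdm1a -0.15, Kdm2b -0.00 and Kdm4a -0.10. The total RNA ratios rest on 1 library each, and their intervals cover counting error only.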
